A study of Homo sapiens with 20 samples.

Results

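The 32 genes described here encode parts of the lysosome and of autophagy, and were chosen by symbol from the count table: CD68 and other lysosomal membrane proteins, hydrolases, the proton pump, the TFE transcription factors with a calcium channel, and autophagy factors. All 32 of the listed symbols were found among the 26038 gene symbols of the table, and all 32 had enough reads to be tested in each comparison. The data are 20 polyA RNA-seq libraries of MHCC-97H, a human hepatocellular carcinoma cell line, in 4 groups of 5. NFS1 cells carry a short hairpin RNA knockdown of NFS1, the cysteine desulfurase that supplies sulfur for iron-sulfur clusters, and were heated to 47 °C. NC cells, which the labels call wild type, were heated to 47 °C as well. R-47 cells were wild type and heated to 47 °C, and R-37 cells were wild type and kept at 37 °C. In all 4 groups the cells spent 15 min in a water bath and then 24 h in an incubator before RNA was taken. Whether libraries with one label stem from separate cultures is not stated, so p-values reflect only the spread between these libraries, which may be technical. The labels also do not say whether NFS1 cells were a pool or 1 clone.

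Lysosomes are acidic organelles in which hydrolases break down proteins, sugars and lipids that arrive by endocytosis or by autophagy. A vacuolar proton ATPase acidifies the lumen, heavily glycosylated membrane proteins line it, and the transcription factors TFEB and TFE3 move to the nucleus and raise many lysosomal genes when the mTORC1 kinase is low or lysosomes are stressed. These factors bind a short palindrome, the CLEAR element, in the promoters of their targets. CD68 is best known as a marker of macrophages, but it is a lysosomal membrane protein that many other cell types also make.

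To see which members carry the CLEAR palindrome that TFEB and TFE3 bind, promoters were read from RefSeq (GRCh38.p14), which held 26 of the 32 genes. LAMP2, CTSB, HEXA, PSAP, ATP6V1A and ATP6V1H were not matched. In the 250 bases before the start of transcription, the CLEAR core TCACGTGA stood in 5 of 26 promoters (19.2%), against 1.57% of 12139 promoters of tested genes and 0.854% of all 35116 promoters of the same length. The shorter E-box CACGTG, which lies inside the core and was searched on both strands like all motifs here, stood in 7 of 26 (26.9%), against 8.65% and 6.35%. The additional promoters with an E-box but no full core were those of CTSD and NEU1. The inverted repeats of the heat shock element, GAANNTTC or TTCNNGAA, stood in 1 of 26 (3.85%, GABARAPL2), against 8.81% and 11.6%. The last 100 bases before the start follow, 5′ to 3′, for the 5 genes with the core and for CD68, which has none of these motifs in its 250 bases. Capitals mark the CLEAR core and the E-box.
MCOLN1, chr19:7522524-7522623, plus strand: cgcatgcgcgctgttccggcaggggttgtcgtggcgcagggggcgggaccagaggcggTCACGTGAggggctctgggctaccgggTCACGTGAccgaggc
CTSA, chr20:45891235-45891334, plus strand: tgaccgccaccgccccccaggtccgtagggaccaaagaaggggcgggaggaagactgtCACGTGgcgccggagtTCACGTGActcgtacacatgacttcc
ATP6V0D1, chr16:67481158-67481257, minus strand: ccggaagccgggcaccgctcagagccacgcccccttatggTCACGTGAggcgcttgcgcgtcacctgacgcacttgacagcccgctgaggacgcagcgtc
GAA, chr17:80101481-80101580, plus strand: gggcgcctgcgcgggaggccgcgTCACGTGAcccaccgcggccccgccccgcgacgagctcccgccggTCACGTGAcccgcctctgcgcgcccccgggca
LAMP1, chr13:113297139-113297238, plus strand: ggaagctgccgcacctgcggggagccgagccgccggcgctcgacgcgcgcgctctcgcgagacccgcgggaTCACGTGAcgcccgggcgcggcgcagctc
CD68, chr17:7579538-7579637, plus strand: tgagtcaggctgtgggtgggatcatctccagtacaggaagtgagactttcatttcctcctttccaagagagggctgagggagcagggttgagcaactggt
A match is only a run of letters. The members were chosen as lysosome and autophagy genes, so the shares above describe them and are not a test. Of the 5 genes that carry the core, MCOLN1 was called higher with heat and the other 4 were not called. In NFS1 against NC cells CTSA, ATP6V0D1 and GAA were called higher and MCOLN1 and LAMP1 were not called. The GAA call was lost in 16 of 24 other settings. In NC against R-47 cells LAMP1, CTSA and ATP6V0D1 were called lower and GAA and MCOLN1 higher. CD68, without a core, was called in every comparison. Over all genes tested, 11.9% were called higher with heat and 15.7% in NFS1 against NC cells. In NC against R-47 cells 40.1% of all genes were called higher and 39.6% lower. The part of the core in the changes of these members was not tested.

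Total counts ran from 32219946 to 39689939 per library. A gene was called when the adjusted p of edgeR's quasi-likelihood test, with Benjamini-Hochberg adjustment over all genes tested, was below 0.05. Levels are CPM (counts scaled to TMM-adjusted library size), and means are given ± SD over 5 libraries. The targeted gene NFS1 averaged 66.5 ± 2.93 CPM in NFS1 and 72.7 ± 1.89 CPM in NC cells, a small difference that the test across all genes did not call (log2 fold change -0.11, adjusted p = 0.114), while a two-sided exact permutation test of this gene alone gave p = 0.0079, the smallest that 5 against 5 libraries allow. NFS1 was called lower by DESeq2 (adjusted p = 0.0437), with all 20 libraries in one fit (adjusted p = 0.0485) and with length and GC offsets (adjusted p = 0.0247), at log2 fold changes of -0.14 to -0.12. The knockdown label is therefore met only by a weak drop in its RNA, and the group is called NFS1 by its label throughout. Between the heated groups labelled wild type, NFS1 RNA differed by more. It was called lower in NC than in R-47 cells, with a log2 fold change of -0.33. NFS1 replicate 4 stood apart, with a mean correlation of 0.986 with its own group, against 0.992 to 0.997 in the other libraries. Of the liver markers, KRT8 and the regulator HNF4A were read in all groups, whereas GPC3 and TTR were at or near 0 and AFP and ALB were low. Some of these markers moved with the comparisons below, and their part in the members' changes was not tested. With heat, ALB (-1.46 on the log2 scale), SERPINA1 (-1.29), TF (-1.21) and APOB (-0.92) were called lower, and 1 of the 10 liver markers tested was higher. In NFS1 against NC cells, 6 of 10 were lower, TF among them (-0.91). Of 4 stromal genes tested there, 1 was called, LUM, which was higher (0.78). In NC against R-47 cells, 5 of 10 liver markers were lower and 3 higher, and all 3 stromal genes tested were higher. Of 3 endothelial genes tested there, 2 were higher and 1 lower. The part of the stromal and endothelial genes in the members' changes was not tested either. KRT8 averaged 2607 CPM in NFS1, 3215 CPM in NC, 4537 CPM in R-47 and 4821 CPM in R-37 cells.

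Levels per gene length, read from the deposited FPKM, differed widely between the members and kept much the same order in all groups. The autophagy receptor SQSTM1 (p62) was the highest of the 32 in each group, with 515 ± 47.9 FPKM in NFS1, 457 ± 25.5 FPKM in NC, 799 ± 26.8 FPKM in R-47 and 655 ± 46.1 FPKM in R-37 cells. PSAP, the precursor of the saposins that help enzymes to reach lipids, and the proteases CTSD and CTSL took ranks 2 to 4 in every group. In R-37 cells PSAP (434 ± 18.2 FPKM), CTSL (432 ± 15.8 FPKM) and CTSD (425 ± 56.1 FPKM) were within their spread of each other. TFEB and WIPI1 were the lowest 2 in every group, at about 1 or 2 FPKM. TFE3 was the more abundant of the pair of TFE factors, at 47.9 ± 1.71 FPKM against 0.739 ± 0.0961 FPKM for TFEB in R-47 cells. CD68 ranked 6 of 32 in NFS1, 7 in NC, 9 in R-47 and 11 in R-37 cells. Summed over the 32 genes, the level was 2177 to 2505 FPKM in NFS1, 2115 to 2245 FPKM in NC, 3024 to 3212 FPKM in R-47 and 2736 to 3110 FPKM in R-37 libraries. The sums of NFS1 and NC libraries overlapped, as did those of R-47 and R-37 libraries, and all sums of the first pair lay below all sums of the second pair. By role, this last order held for proteases, glycosidases, the calcium channel with the TFE factors, and autophagy genes. It did not hold for membrane proteins, lipid handling proteins and the pump. Lipid handling proteins summed to 533 to 595 FPKM in NFS1 libraries, against 458.5 to 477.9 FPKM in R-47 libraries.

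**Figure D1:**
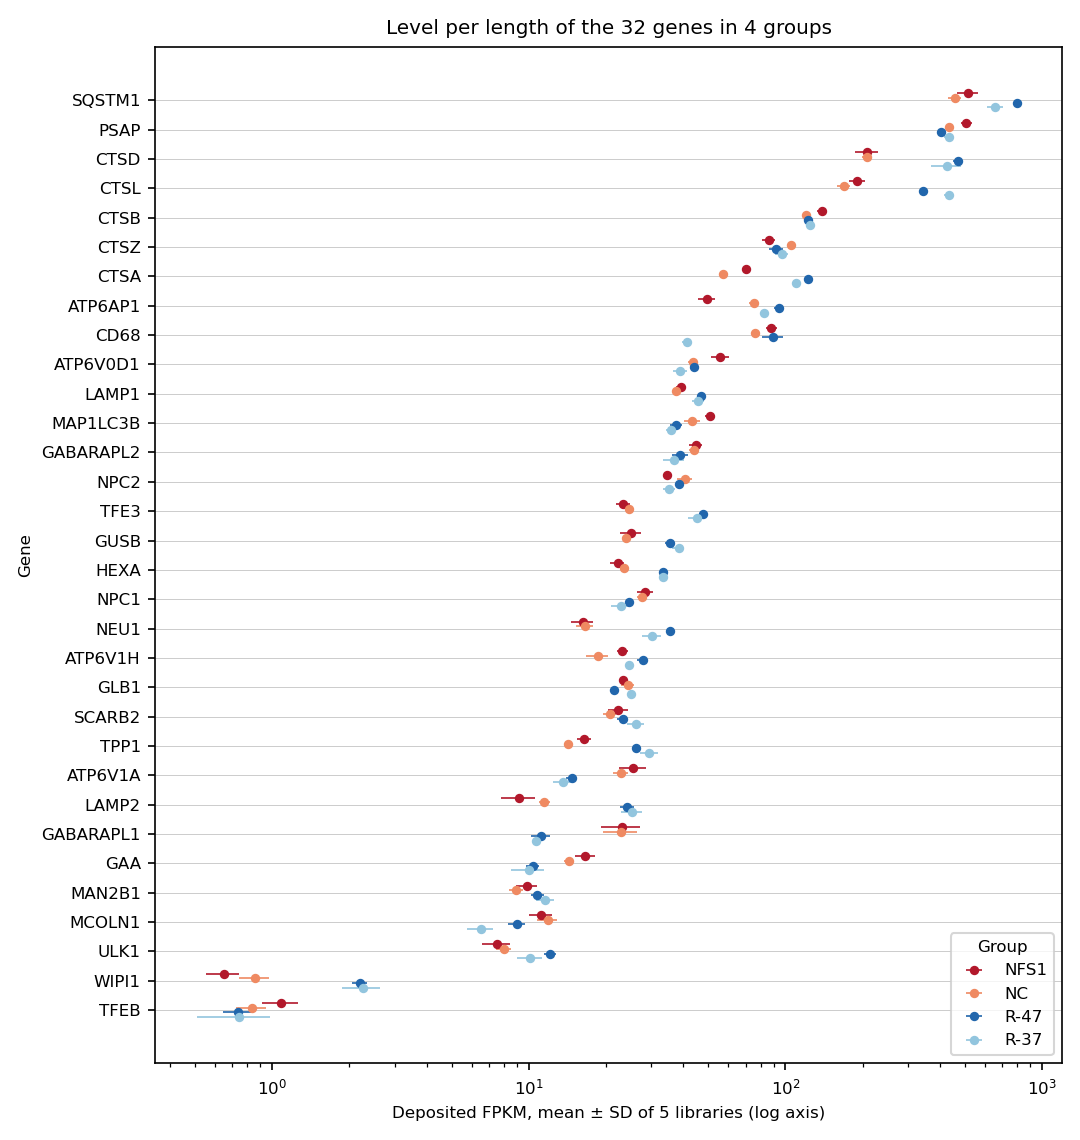
Level per length (deposited FPKM, log axis) of each of the 32 genes, as the mean ± SD of 5 libraries in NFS1, NC, R-47 and R-37 cells. SQSTM1 is the highest in all 4 groups, TFEB and WIPI1 are the lowest, and LAMP2, NEU1, TFE3 and WIPI1 lie lower in NFS1 and NC than in R-47 and R-37 cells.

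The first comparison asks what a 47 °C bath left behind in wild-type cells after 24 h. CD68 was the member that changed most: its RNA was 2.06 times the R-37 level in R-47 cells. MCOLN1 and SQSTM1 rose by less, the first a calcium channel of the lysosome and the second an autophagy receptor. The 6 members that fell, each by a modest amount, were the proteases CTSL and TPP1, the glycosidases GLB1 and GUSB, the membrane protein SCARB2 and PSAP. The other 23 were not called, with log2 fold changes of -0.18 to 0.19. So 3 of 32 members (9.38%) were higher and 6 of 32 (18.8%) lower, beside 11.9% higher and 13.2% lower among all 14344 genes tested, and the median log2 fold change of the members, -0.01, was that of all genes, -0.01. Without TMM scaling, on library size alone, 9 members were called higher and 4 lower, and with offsets for length and GC content 5 were higher and 12 lower, so the balance of the 2 directions depends on these choices. Leaving out R-37 replicate 1 gave 5 higher.

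CD68 had 138, 168, 181, 164 and 158 CPM in the 5 R-47 libraries, against 78.3, 78.8, 80.2, 82.9 and 74.1 CPM in the 5 R-37 libraries. The groups did not overlap, and the lowest R-47 library stood well above the highest R-37 library. In the fit the difference was large against its error (log2 fold change 1.04 ± 0.06 (SE), adjusted p = 3.99e-08), and 258 of the 14344 genes tested had a larger log2 fold change. CD68 lies on chromosome 17p (chr17:7579638-7582111, GRCh38.p14), close to other genes, and whether reads were assigned by strand is not given in the sources used here. Its neighbours SENP3 and MPDU1 were not called: SENP3 had 8.45 ± 1.11 CPM in R-47 and 7.76 ± 1.44 CPM in R-37 cells, and MPDU1 had 66.6 ± 2.27 CPM in R-47 and 68.3 ± 4.08 CPM in R-37 cells. The neighbour EIF4A1 was not analysed here. In bulk RNA, more cells with CD68 RNA and more CD68 RNA per cell cannot be told apart.

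CD68 is used to mark macrophages, so a list of 20 macrophage and leukocyte markers was read beside it. Of the 16 in the table, 14 averaged under 1 CPM in R-47 and 13 in R-37 cells, and PTPRC, CSF1R, AIF1, MARCO, VSIG4 and LAPTM5 were at or near 0. The summed level of the list was 12.3 to 14.3 CPM in R-47 and 7.99 to 9.38 CPM in R-37 libraries, less than the CD68 level alone. Most of this sum was ITGAM, an integrin subunit of myeloid cells, with 10.5 ± 1.07 CPM in R-47 and 5.9 ± 0.481 CPM in R-37 cells (log2 fold change 0.84 ± 0.09 (SE), adjusted p = 1.45e-05). TYROBP, an adaptor of myeloid receptors with too few reads to be tested, had 50 counts in all R-47 libraries together and 4 in all R-37 libraries, without overlap in CPM. MSR1 had 1.34 ± 0.186 CPM in R-47 and 1.49 ± 0.565 CPM in R-37 cells, and CD14 had 0.863 ± 0.132 CPM in R-47 and 1.1 ± 0.281 CPM in R-37 cells, and neither was called. The part of such markers in the rise of CD68 was not tested.

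**Figure D2:**
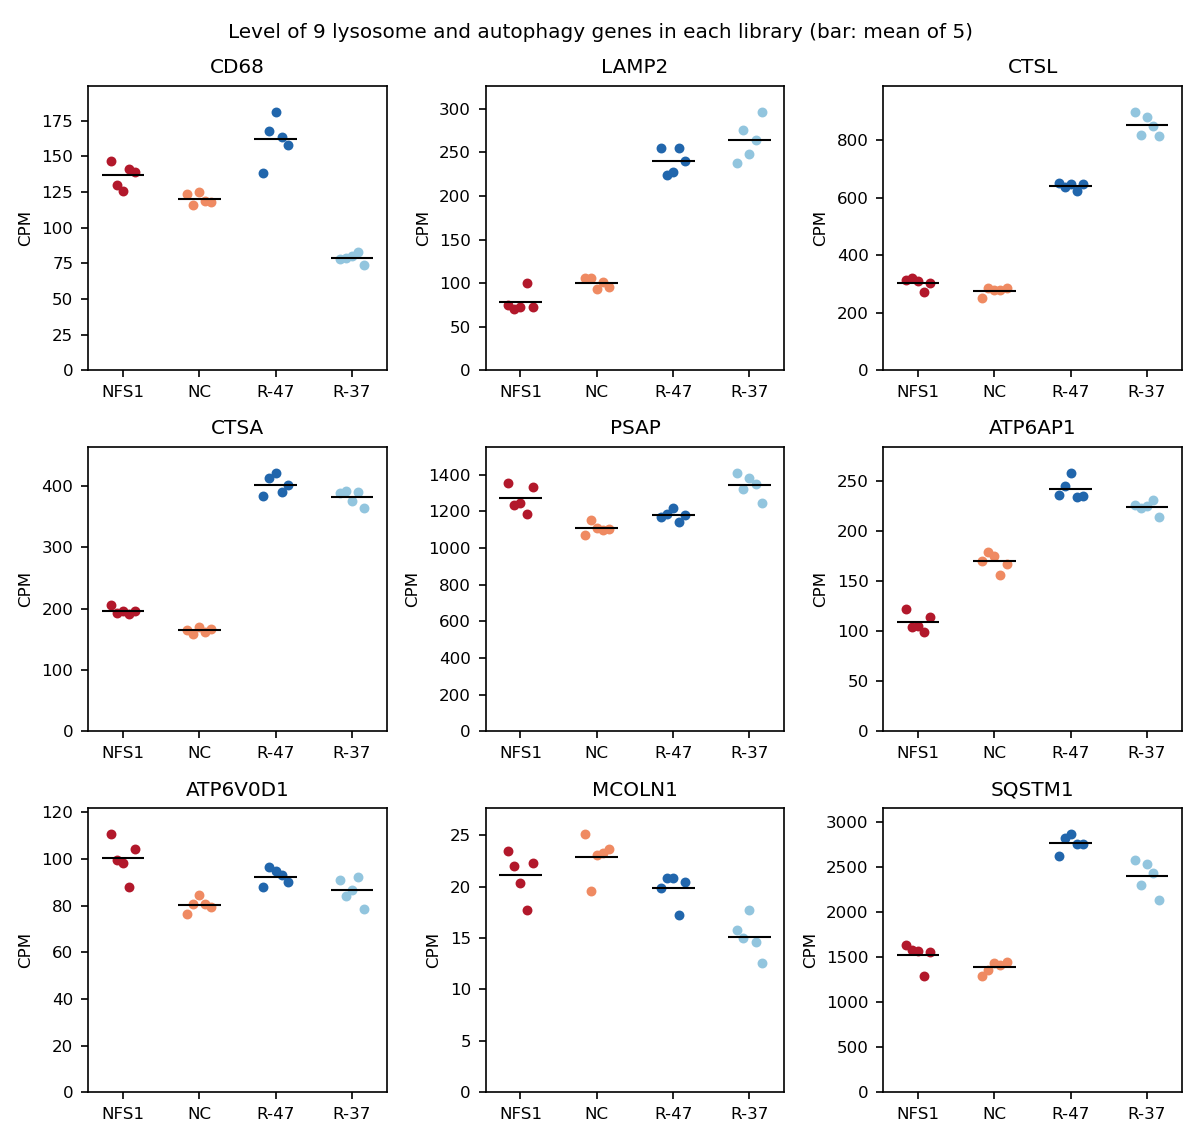
Level in CPM of 9 of the genes in each of the 20 libraries (points) with the mean of 5 (bar), for NFS1, NC, R-47 and R-37 cells. All R-47 libraries lie above all R-37 libraries for CD68 and SQSTM1 and below them for CTSL, and all NFS1 libraries lie below all NC libraries for ATP6AP1.

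Among the other membrane proteins, SCARB2 (LIMP-2), which carries glucocerebrosidase to the lysosome, had 121, 110.5, 110.2, 118 and 116 CPM in R-47 libraries, against 123, 142, 134, 136 and 149 CPM in R-37 libraries. The groups did not overlap, and SCARB2 was called lower (log2 fold change -0.24 ± 0.05 (SE), adjusted p = 0.00426). LAMP1 and LAMP2, the most abundant glycoproteins of the lysosomal membrane, were not called. LAMP2 had 240.2 ± 14.7 CPM in R-47 and 265 ± 23.1 CPM in R-37 cells, and LAMP1 had 135 ± 2.56 CPM in R-47 and 139 ± 8.24 CPM in R-37 cells.

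Of the 6 proteases, 2 fell and 4 were not called. CTSL (cathepsin L), a cysteine protease, had 652, 638, 649, 622 and 648 CPM in R-47 libraries, against 898, 819.6, 879, 851 and 816 CPM in R-37 libraries. Every R-47 library was below every R-37 library, and CTSL showed the largest fall among the members (log2 fold change -0.41 ± 0.04 (SE), adjusted p = 3.89e-06). TPP1, a tripeptidyl peptidase, fell as well, to 96.9 ± 2.99 CPM in R-47 cells, against 115 ± 8.82 CPM in R-37 cells (log2 fold change -0.24 ± 0.05 (SE), adjusted p = 0.00423). The calls of SCARB2 and TPP1 were lost in 1 of 22 other settings, on log2(FPKM + 1) without a filter (adjusted p = 0.0704 for SCARB2 and 0.069 for TPP1). The cathepsins CTSB, CTSD and CTSZ and the carboxypeptidase CTSA, which also protects NEU1 in a complex, were not called. CTSD had 1022 ± 50.5 CPM in R-47 and 979 ± 134 CPM in R-37 cells, a spread in R-37 that was wider than the difference.

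Of the 6 glycosidases, GLB1 and GUSB fell, and HEXA, GAA, MAN2B1 and NEU1 were not called. NEU1 was called higher on library size alone, in the 3 fits on FPKM and with a minimum count of 50. Length and GC offsets called NEU1 higher, and MAN2B1 and GAA lower. Leaving out R-37 replicate 1 called NEU1 higher, and leaving out R-37 replicate 5 called MAN2B1 lower. GLB1 (beta-galactosidase), whose activity is widely stained as a sign of senescence, had 72.8, 75.1, 79.5, 74.1 and 71.6 CPM in R-47 libraries, against 95.0, 93.7, 87.5, 93.3 and 89.7 CPM in R-37 libraries. The groups did not overlap (log2 fold change -0.29 ± 0.05 (SE), adjusted p = 0.000379). GUSB (beta-glucuronidase) had 83.8 ± 4.05 CPM in R-47 and 95.7 ± 5.69 CPM in R-37 cells, with overlapping groups (log2 fold change -0.19 ± 0.05 (SE), adjusted p = 0.0183). This call was lost in 5 of 22 other settings, the replicate block among them.

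In the lipid group, PSAP fell to 1180 ± 26.4 CPM in R-47 cells, against 1342 ± 64.4 CPM in R-37 cells (log2 fold change -0.18 ± 0.04 (SE), adjusted p = 0.00416). The PSAP call was lost on library size alone, where the log2 fold change was -0.10, and on FPKM. NPC1 and NPC2, which pass cholesterol out of the lysosome, were not called and had nearly the same level in both groups, with 194 ± 4.82 CPM in R-47 and 191 ± 14.6 CPM in R-37 cells for NPC1. Of the 4 pump genes (ATP6V0D1, ATP6V1A, ATP6V1H, ATP6AP1), 0 were called by edgeR, 1 had an unadjusted p below 0.05, and the log2 fold changes were 0.04 to 0.12. DESeq2, and edgeR with DESeq2 size factors or a minimum count of 50, called ATP6AP1 higher, and edgeR on library size alone and the 3 fits on FPKM called 3 of the 4 higher (ATP6V0D1, ATP6V1H, ATP6AP1), while length and GC offsets called ATP6V1A higher. ATP6AP1, an accessory subunit that helps to assemble the pump, came nearest, with 236, 246, 259, 234 and 235 CPM in R-47 libraries, against 226, 224, 225, 231 and 214 CPM in R-37 libraries. These groups did not overlap, but the adjusted p was 0.0582 in edgeR, against 0.0269 in DESeq2.

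MCOLN1 (TRPML1), the channel whose calcium release activates TFEB through calcineurin, had 19.8, 20.9, 20.8, 17.2 and 20.4 CPM in R-47 libraries, against 15.8, 15.0, 17.7, 14.6 and 12.6 CPM in R-37 libraries. All R-47 libraries but replicate 4 lay above all R-37 libraries, and MCOLN1 was called higher (log2 fold change 0.39 ± 0.09 (SE), adjusted p = 0.00414). TFEB and TFE3 themselves were not called. TFE3 had 169 ± 6.69 CPM in R-47 and 168 ± 13.1 CPM in R-37 cells, and TFEB had 2.85 ± 0.38 CPM in R-47 and 3.04 ± 0.976 CPM in R-37 cells.

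SQSTM1, the receptor that brings ubiquitin-tagged cargo into autophagosomes, was the only one of the 6 autophagy genes to be called. It had 2616, 2823, 2866, 2752 and 2753 CPM in R-47 libraries, against 2580, 2296, 2535, 2430 and 2133 CPM in R-37 libraries. The groups did not overlap, although the lowest R-47 library was only a little above the highest R-37 library (log2 fold change 0.21 ± 0.05 (SE), adjusted p = 0.00568). GABARAPL1, GABARAPL2 and MAP1LC3B (LC3B), the phosphoinositide reader WIPI1 and the starter kinase ULK1 were not called. MAP1LC3B had 85.3 ± 4.47 CPM in R-47 and 86.5 ± 3.41 CPM in R-37 cells, and it may share reads with the near-identical MAP1LC3B2, so its count is uncertain.

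The second comparison asks how NFS1 cells differed from NC cells when both had been heated. Members moved in both directions and by small amounts: 10 rose and 5 fell. The strongest change was a fall of ATP6AP1 to 0.649 times the NC level, and among the others that fell was LAMP2. Of the 6 proteases, 4 rose (CTSA, CTSB, TPP1, CTSL), and so did the pump subunits ATP6V0D1 and ATP6V1H, PSAP, GAA, MAP1LC3B and CD68. CTSZ, NPC2 and WIPI1 fell. The other 17 were not called, with log2 fold changes of -0.10 to 0.36. The 10 higher members were 31.2% of 32, beside 15.7% of all 15086 genes tested, and the 5 lower members were 15.6%, beside 12.5%. The median log2 fold change was 0.05 over the members and 0.02 over all genes. Leaving out NFS1 replicate 4 gave 12 higher and 5 lower, the added calls being TFEB and SQSTM1, and leaving out NC replicate 3 gave 6 higher.

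CD68 had 147, 130.1, 126, 141 and 139 CPM in NFS1 libraries, against 124, 116, 125, 118 and 118 CPM in NC libraries. Every NFS1 library was above every NC library, by a small step between the nearest (log2 fold change 0.20 ± 0.05 (SE), adjusted p = 0.0115). This rise of 1.15 times was much smaller than the one seen with heat in R-47 against R-37 cells, and the difference between the 2 effects was not tested. LAMP2, a receptor for chaperone-mediated autophagy in 1 of its splice forms, had 74.8, 70.1, 72.6, 100 and 73.3 CPM in NFS1 libraries, against 106, 106, 93.6, 102 and 95.5 CPM in NC libraries. NFS1 replicate 4 lay within the NC range and the other NFS1 libraries lay below it (log2 fold change -0.34 ± 0.09 (SE), adjusted p = 0.0116). Without that library the log2 fold change was -0.45 with an adjusted p of 2.78e-06. LAMP1 and SCARB2 were not called. The macrophage and leukocyte list summed to 2.62 to 4.75 CPM in NFS1 and 2.79 to 3.63 CPM in NC libraries, and 14 of its 16 genes in the table averaged under 1 CPM in each of these groups.

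Among the proteases, CTSA had 206, 193, 196, 191 and 197 CPM in NFS1 libraries, against 165, 159.5, 169.6, 162 and 167 CPM in NC libraries. The groups were well apart (log2 fold change 0.27 ± 0.04 (SE), adjusted p = 0.00042). CTSB, a cysteine protease, had 619 ± 31.8 CPM in NFS1 and 549.7 ± 11.8 CPM in NC cells without overlap (log2 fold change 0.19 ± 0.05 (SE), adjusted p = 0.00689). CTSZ, a cysteine carboxypeptidase, went the other way, with 127, 112, 117, 108 and 123 CPM in NFS1 libraries and 146, 153, 152, 139 and 142 CPM in NC libraries (log2 fold change -0.30 ± 0.06 (SE), adjusted p = 0.00105). TPP1 had 52.0 ± 3.27 CPM in NFS1 and 46.1 ± 1.47 CPM in NC cells (adjusted p = 0.0285), and CTSL had 305 ± 19.1 CPM in NFS1 and 276 ± 14.5 CPM in NC cells (adjusted p = 0.0446). The CTSL call was lost in 16 of 24 other settings and the TPP1 call in 8 of 24, fits without a single library among them in both cases. CTSD was not called.

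Of the glycosidases, GAA (acid alpha-glucosidase), which breaks down glycogen, was called higher with 57.8 ± 5.59 CPM in NFS1 and 51.0 ± 2.44 CPM in NC cells (adjusted p = 0.0432), a call that was lost in 16 of 24 other settings. HEXA, GLB1, GUSB, MAN2B1 and NEU1 were not called. PSAP had 1357, 1232, 1246, 1185 and 1332 CPM in NFS1 libraries, against 1072, 1153, 1111, 1100 and 1106 CPM in NC libraries, with no overlap (log2 fold change 0.21 ± 0.05 (SE), adjusted p = 0.00325). NPC2, a soluble carrier of cholesterol, was lower with 45.5 ± 1.62 CPM in NFS1 and 54.5 ± 3.51 CPM in NC cells (log2 fold change -0.24 ± 0.06 (SE), adjusted p = 0.00692), while its membrane partner NPC1 was not called.

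The 4 pump genes split. ATP6AP1 had 122, 104, 105, 99.1 and 115 CPM in NFS1 libraries, against 170.2, 179.8, 176, 157 and 168 CPM in NC libraries. The groups were far apart (log2 fold change -0.62 ± 0.06 (SE), adjusted p = 8.44e-06), and the log2 fold change lay between -0.67 and -0.57 in all 24 other settings. ATP6V0D1, a subunit of the membrane-bound V0 part, had 111, 99.7, 98.5, 88.1 and 104 CPM in NFS1 libraries, against 76.5, 80.8, 84.4, 80.6 and 79.3 CPM in NC libraries (log2 fold change 0.34 ± 0.06 (SE), adjusted p = 0.000859). ATP6V1H, a regulatory subunit of the V1 part, had 50.5 ± 1.82 CPM in NFS1 and 41.5 ± 3.72 CPM in NC cells (log2 fold change 0.30 ± 0.07 (SE), adjusted p = 0.00351). Neither gene's groups overlapped. The catalytic subunit ATP6V1A was not called.

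MCOLN1, TFEB and TFE3 were not called. TFEB had 3.88, 3.48, 4.4, 3.08 and 3.11 CPM in NFS1 libraries, against 3.02, 2.33, 2.84, 2.65 and 3.28 CPM in NC libraries, a low level with overlapping groups and an adjusted p of 0.067. Of the autophagy genes, MAP1LC3B was higher with 98.8 ± 3.71 CPM in NFS1 and 86.4 ± 5.53 CPM in NC cells (log2 fold change 0.21 ± 0.06 (SE), adjusted p = 0.0121), a call that was lost without NC replicate 3. WIPI1 was lower with 2.53 ± 0.367 CPM in NFS1 and 3.41 ± 0.453 CPM in NC cells (log2 fold change -0.41 ± 0.14 (SE), adjusted p = 0.0398), a call lost in 11 of 22 other settings. SQSTM1 had 1636, 1581, 1562, 1287 and 1561 CPM in NFS1 libraries, against 1286, 1356, 1430, 1411 and 1444 CPM in NC libraries. It was not called (adjusted p = 0.0673): NFS1 replicate 4 fell within the NC range, and the other NFS1 libraries lay above it. Without that library SQSTM1 was called higher, with a log2 fold change of 0.21 and an adjusted p of 0.00051.

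Some of the changes in NFS1 against NC cells lay on chromosomes where many genes moved the same way. On the long arm of chromosome X, taken as genes that start beyond 61 Mb, 162 of 285 genes tested (56.8%) were lower in NFS1 than in NC cells and 12 (4.21%) were higher, with a median log2 fold change of -0.44. Both members there, ATP6AP1 and LAMP2, were among the 5 that fell, and so were all 3 genes of the wider lysosome and autophagy lists there (GLA, IDS, ATG4A). On chromosome 10, 375 of 565 genes tested (66.4%) were higher and 11 (1.95%) lower, with a median of 0.48. PSAP, the member on chromosome 10, was called higher, and so were 3 of 4 wider genes there, LIPA and OPTN among them. Chromosome 14, which holds NPC2, had a median of -0.18, with 163 of 494 genes (33.0%) lower. TFE3, on the short arm of X, was not called, and the median of that arm was 0.02. The median of chromosome 17, which holds CD68, was 0.01. On chromosome 11, 245 of 814 genes (30.1%) were lower, with a median of -0.13. TPP1, on chromosome 11, was called higher, a call lost in 8 of 24 other settings, and CTSD there was not called. Chromosome 17 held members called higher (CD68, GAA) and lower (WIPI1), and so did chromosome 20 (CTSA higher, CTSZ lower). In R-47 against R-37 cells the medians were -0.05 for the long arm of X and -0.03 for chromosomes 10 and 14. In NC against R-47 cells they were -0.41 for the long arm of X, -0.83 for its short arm, -0.46 for chromosome 10 and 0.57 for chromosome 14, and NC libraries are part of both this and the NFS1 comparison. These chromosomes were singled out after their values were seen. Their part in the changes of the members, ATP6AP1, LAMP2, PSAP and NPC2 among them, was not tested.

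**Figure D3:**
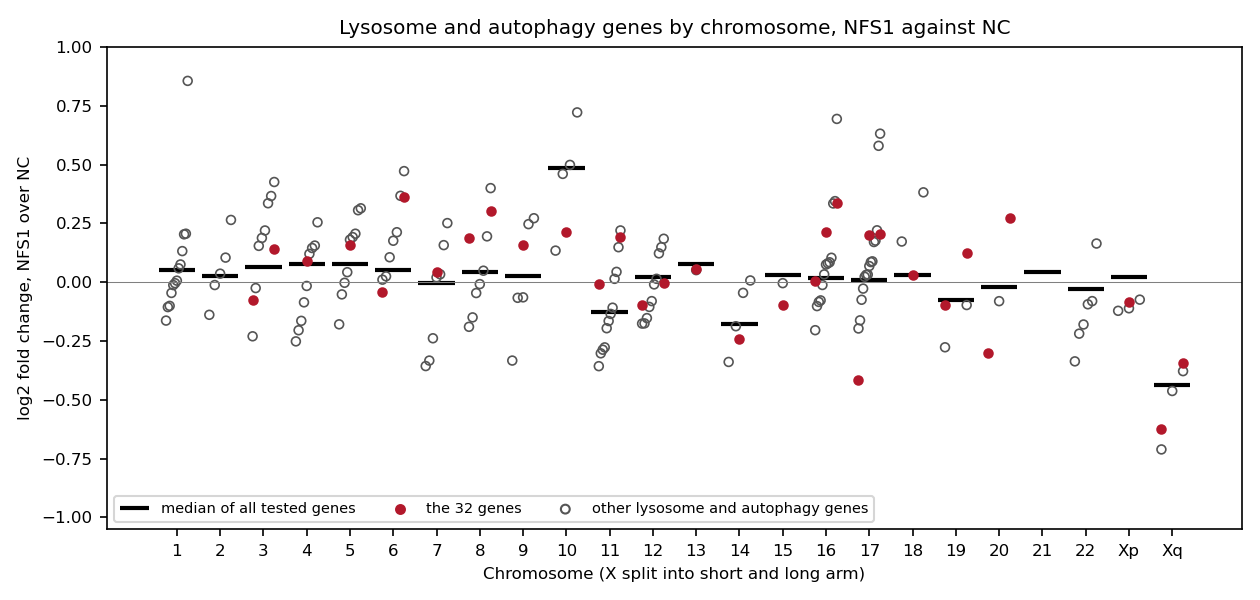
Log2 fold change of NFS1 over NC cells (vertical axis) of the 32 genes (filled points) and of other lysosome and autophagy genes (open points), by chromosome, with the X short arm (Xp) and long arm (Xq) apart. Black bars are the median of all tested genes, 0.48 on chromosome 10 and -0.44 on Xq, and all 5 points on Xq lie below 0.

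The third comparison sets NC against R-47 cells. Both groups are labelled wild type and were heated to 47 °C, but their names set them in different pairs of groups, so experiment and group cannot be told apart. Most members were lower in NC cells: 21 of 32 (65.6%) fell and 4 of 32 (12.5%) rose, where 39.6% of all 15080 genes tested were lower and 40.1% higher. The median log2 fold change was -0.44 over the members and 0.01 over all genes. On library size alone, which moved the median of all genes to 0.19, 10 members were called higher and PSAP, one of the 21, turned to 0.10. CD68 had -0.42 on the log2 scale (adjusted p = 4.63e-07), with values of NC libraries all below those of R-47 libraries. The macrophage and leukocyte list summed to 2.79 to 3.63 CPM in NC and 12.3 to 14.3 CPM in R-47 libraries. Of its 3 genes tested, ITGAM (-2.59 on the log2 scale) and MSR1 (-4.91) were lower and CD14 was not called. The part of such markers in the fall of CD68 was not tested.

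By role, all 4 membrane proteins fell, and 5 of the 6 proteases, 4 of the 6 glycosidases and 3 of the 4 pump genes did. So did 3 of the 6 autophagy genes, 1 of the 3 lipid handling proteins and 1 of the 3 calcium channel and TFE genes. Over all genes tested, 39.6% were lower. The calls of CTSB and ATP6V0D1 among these were lost on library size alone (log2 fold changes of -0.02 and -0.02, adjusted p = 0.498 for CTSB and 0.76 for ATP6V0D1) and in the 3 fits on FPKM. LAMP2 fell to 100.3 ± 5.6 CPM in NC cells, against 240.2 ± 14.7 CPM in R-47 cells, 0.42 times the R-47 level. CTSD, the aspartic protease, fell to 396 ± 15.8 CPM in NC cells, against 1022 ± 50.5 CPM in R-47 cells, and CTSA to 165 ± 3.92 CPM in NC cells, against 402 ± 15.8 CPM in R-47 cells. CTSL, NEU1, TFE3 and TPP1 fell strongly as well, with log2 fold changes of -1.21 for CTSL, -1.28 for NEU1, -1.15 for TFE3 and -1.06 for TPP1. TFE3 lies on the short arm of X, where 121 of 189 genes (64.0%) were lower, and LAMP2 and ATP6AP1 on the long arm, where 186 of 300 (62.0%) were; the part of these arms in their falls was not tested. WIPI1 fell most, to 3.41 ± 0.453 CPM in NC cells, against 9.98 ± 0.691 CPM in R-47 cells (log2 fold change -1.54 ± 0.11 (SE), adjusted p = 1.94e-11), and SQSTM1 fell to 1386 ± 65.0 CPM in NC cells, against 2762 ± 95.0 CPM in R-47 cells. The 4 that rose were GABARAPL1, ATP6V1A, GAA and MCOLN1. GABARAPL1 had 39.5, 45.7, 48.8, 56.5 and 55.0 CPM in NC libraries, against 25.3, 25.7, 26.8, 30.6 and 27.9 CPM in R-47 libraries (log2 fold change 0.86 ± 0.08 (SE), adjusted p = 2.83e-09), and ATP6V1A had 97.1 ± 7.3 CPM in NC and 71.1 ± 3.35 CPM in R-47 cells (log2 fold change 0.46 ± 0.05 (SE), adjusted p = 7.63e-08). ATP6V1A lies on chromosome 3, where 512 of 851 genes tested (60.2%) were higher and 206 (24.2%) lower. Of the 8 wider genes on chromosome 3, 4 were higher, MITF among them, and 3 lower. This chromosome was singled out after its values were seen, and its part in these changes was not tested. CTSZ, GLB1, NPC1, NPC2, TFEB, GABARAPL2 and MAP1LC3B were not called.

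Across the comparisons, NPC1, TFEB and GABARAPL2 were called in none. NC libraries serve in the second and the third comparison and R-47 libraries in the first and the third, so those calls are not independent. CD68, CTSL, TPP1 and PSAP were called in all 3, but the PSAP call in NC against R-47 cells (adjusted p = 0.0342, overlapping groups) was lost in 8 of 22 other settings and reversed in 4. CTSL, TPP1 and PSAP fell with heat and were higher in NFS1 than in NC cells. In NFS1 against NC cells the CTSL call was lost in 16 of 24 other settings and the TPP1 call in 8 of 24. With heat the TPP1 call was lost in 1 of 22 other settings and the PSAP call in 4 of 22.

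**Figure D4:**
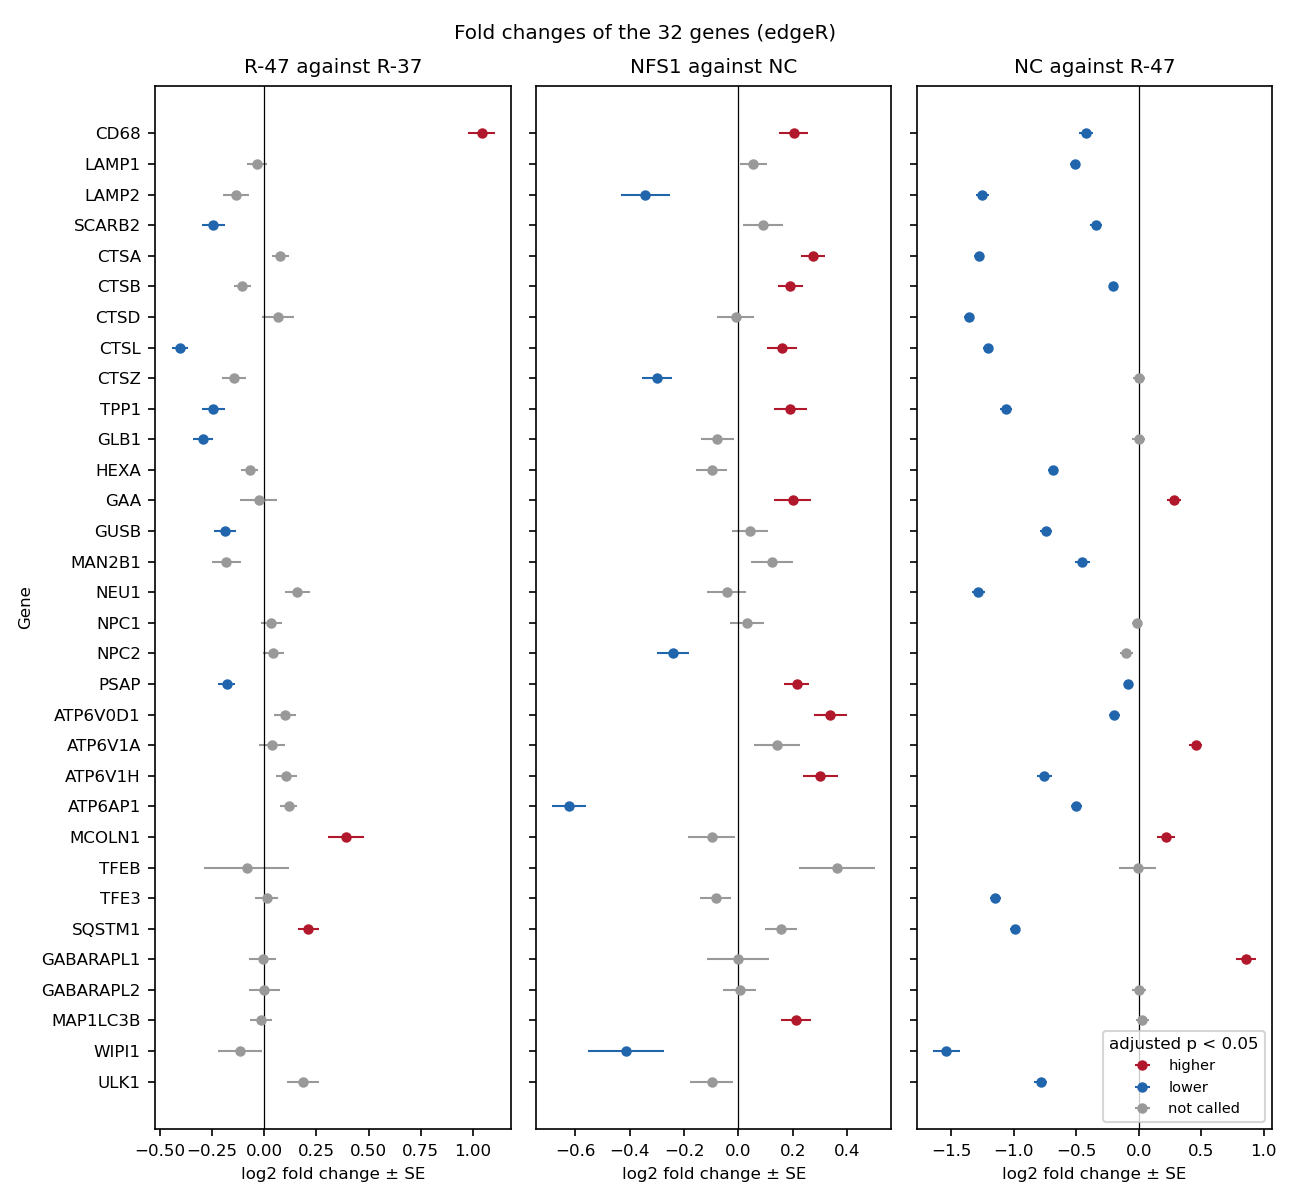
Log2 fold change ± SE (edgeR) of each of the 32 genes, with R-47 against R-37 on the left, NFS1 against NC in the middle and NC against R-47 on the right, coloured by the call at an adjusted p below 0.05, with horizontal scales that differ between panels. CD68 stands out at 1.04 in the first panel, ATP6AP1 at -0.62 in the second, and 21 of 32 genes are lower in the third.

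A wider set of 153 further lysosome and autophagy genes, of which 152 were in the table, gives the surroundings of the 32. With heat, 31 of the 150 tested were higher and 21 lower, beside 11.9% higher and 13.2% lower among all genes, the shares against which the counts below are to be read. Of 38 other hydrolases and cofactors 6 were higher and 13 lower, of 39 other autophagy genes 11 were higher and 3 lower, and of 14 other pump subunits 5 were higher and 1 lower. Of 23 genes of TFE and mTORC1 control 5 were higher, of 23 other membrane proteins 3 were higher and 3 lower, and of 13 genes that deliver enzymes 1 was higher and 1 lower. On library size alone 54 of the wider set were higher and 12 lower. The largest rises among genes above the level cut-off (a mean log2 CPM of 2) were those of MAP1LC3A, an LC3 protein, with 18.6 ± 1.51 CPM in R-47 and 8.22 ± 1.7 CPM in R-37 cells (log2 fold change 1.19 ± 0.12 (SE), adjusted p = 3.81e-06), and of the cysteine protease CTSO, with 19.5 ± 1.8 CPM in R-47 and 10.4 ± 1.1 CPM in R-37 cells (log2 fold change 0.91 ± 0.09 (SE), adjusted p = 3.25e-06). SMPD1 (acid sphingomyelinase) and the lysosomal ion channel TMEM175 followed, with log2 fold changes of 0.54 for SMPD1 and 0.46 for TMEM175. The largest falls were those of ARSB, a sulfatase, with 9.6 ± 0.829 CPM in R-47 and 15.5 ± 1.27 CPM in R-37 cells (log2 fold change -0.69 ± 0.08 (SE), adjusted p = 2.82e-05), and of CTSC (-0.43 on the log2 scale), LIPA (-0.43) and PPT1 (-0.37), a protease, the acid lipase and a thioesterase.

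In NFS1 against NC cells, 31 of 148 wider genes were higher and 19 lower, beside 15.7% higher and 12.5% lower among all genes, so the lower count is near the share over all genes. Other hydrolases counted 7 higher and 6 lower of 36, other autophagy genes 11 and 6 of 39, and other pump subunits 3 and 3 of 14. TFE and mTORC1 control counted 5 higher and 3 lower of 23, other membrane proteins 4 and 1 of 23, and delivery 1 higher of 13. Among genes above the same level cut-off, GLA (alpha-galactosidase A) fell most, to 112 ± 3.57 CPM in NFS1 cells, against 186 ± 6.64 CPM in NC cells (log2 fold change -0.71 ± 0.05 (SE), adjusted p = 3.77e-07), ahead of the sulfatase IDS (-0.46 on the log2 scale), the autophagy protease ATG4A (-0.38) and LAMTOR1 (-0.36), which anchors mTORC1 at the lysosome. LIPA rose most, to 28.2 ± 4.39 CPM in NFS1 cells, against 17.3 ± 1.08 CPM in NC cells (log2 fold change 0.72 ± 0.10 (SE), adjusted p = 0.000109), ahead of the sulfatase GALNS (0.69 on the log2 scale), the mTORC1 subunit RPTOR (0.63) and the autophagy receptor OPTN (0.50). With the replicate number as a block, 17 wider genes were higher, and leaving out NC replicate 2, 3 or 4 gave 18 to 20.

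In NC against R-47 cells, 92 of 150 wider genes were lower and 38 higher, beside 39.6% lower and 40.1% higher among all genes. The lower ones were 27 of 38 other hydrolases, 19 of 23 other membrane proteins, 9 of 14 other pump subunits, 16 of 39 other autophagy genes, 12 of 23 genes of TFE and mTORC1 control and 9 of 13 delivery genes, the autophagy count being near the share over all genes. The higher ones were 8, 1, 4, 13, 9 and 3 in the same order. Among the named genes, MITF, a relative of TFEB and TFE3, was higher, with 12.5 ± 0.694 CPM in NC and 0.89 ± 0.131 CPM in R-47 cells (log2 fold change 3.81 ± 0.12 (SE), adjusted p = 1.75e-17), and the cysteine protease CTSS was lower, with 0.666 ± 0.193 CPM in NC and 17.1 ± 0.729 CPM in R-47 cells (log2 fold change -4.67 ± 0.13 (SE), adjusted p = 3.52e-18). CTSV (1.55 on the log2 scale), ATP6V1B2 (1.18) and ATG2A (1.13) were higher as well, and TPCN1 (-2.25), GALNS (-2.10) and TSC2 (-1.84) lower. MITF and CTSS passed the level cut-off only through the group in which they are high, and on log2(FPKM + 1) their log2 fold changes were 1.47 for MITF and -2.11 for CTSS.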

How the data were processed

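RNA was measured in 20 libraries of MHCC-97H cells. Per the labels' protocols, TRIzol gave the RNA and a VAHTS Universal V6 kit the libraries. Per the submitters' processing notes, fastp, HISAT2, HTSeq and the build hg38 were used. Their versions, their order, the annotation and strandedness are not stated there. The authors deposited raw counts per gene symbol, and FPKM that equal count over length and library total in 100% of the 385563 values above 0 (relative tolerance 1e-06).

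Counts were tested with edgeR 4.0.16 (R 4.3.3): filterByExpr (minimum count 10), TMM, glmQLFit and glmQLFTest on the 2 groups compared, Benjamini-Hochberg over all genes, threshold 0.05. CPM use TMM factors of all 20 libraries. Alternatives covered scaling, filters, a single fit, the replicate block, leaving out libraries, and length and GC offsets (splines with 5 df). GC content was read from the longest GENCODE transcript of each symbol, and genes without a match took the mean offset. They also covered DESeq2 1.42.0, and limma 3.58.1 on counts (voom) and on log2(FPKM + 1) or (FPKM + 0.1). The fits were tested on simulated data. All 32 members are named, and of the wider lists the 4 called genes with the largest change each way with a mean log2 CPM of at least 2. The members and lists were chosen with earlier results of these data known. Replicate numbers did not pair the libraries.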

Additional observations from a re-analysis of the deposited data

Results flagged for a closer look

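In the 128 sets of 5 libraries (32 genes in 4 groups), 8 held a library far from the other 4 by Dixon's criterion, where chance flags about 1 set in 20. Of the 8, 4 were in NFS1 replicate 4, the library with the lowest correlation with its own group: LAMP2 had 100 CPM there, against 70.1 to 74.8 CPM in the other NFS1 libraries, SCARB2 had 111 CPM against 87.3 to 92.5 CPM, ATP6V1A had 129 CPM against 96.4 to 105 CPM, and SQSTM1 had 1290 CPM against 1560 to 1640 CPM.

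CTSL had 251 CPM in NC replicate 1, against 279 to 286 CPM in the other NC libraries. MCOLN1 had 17.2 CPM in R-47 replicate 4, against 19.8 to 20.9 CPM in the other R-47 libraries. MAN2B1 had 35.4 CPM in R-37 replicate 5, against 42.1 to 44.0 CPM in the other R-37 libraries. ATP6V1H had 61.9 CPM in R-37 replicate 2, against 66.2 to 67.5 CPM in the other R-37 libraries.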

How the results depend on the processing

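CD68 kept its direction and its call under all settings run: log2 fold changes of 0.91 to 1.12 with heat, 0.17 to 0.29 in NFS1 against NC and -0.48 to -0.23 in NC against R-47 cells. With heat, the 3 members called higher became 9 on library size alone, 5 with a minimum count of 50, 5 with length and GC offsets and 10 in each of the 3 fits on FPKM, and the 6 called lower became 12 with length and GC offsets and 2 on log2(FPKM + 1) without a filter. Library size alone added CTSA, NEU1, ATP6V0D1, ATP6V1H, ATP6AP1 and ULK1 to the higher calls, and the fits on FPKM added NPC2 as well. A minimum count of 50 added NEU1 and ATP6AP1. Length and GC offsets added NEU1 and ATP6V1A as higher, and CTSB, CTSD, CTSZ, GAA, MAN2B1 and TFE3 as lower. Leaving out 1 library gave 3 to 5 higher (5 without R-37 replicate 1) and 6 to 9 lower with heat, 6 to 12 higher (6 without NC replicate 3) and 4 to 5 lower in NFS1 against NC, and 4 higher and 20 to 22 lower in NC against R-47 cells. Leaving out NFS1 replicates 2 and 3 together, chosen after seeing the data, gave 6 higher and 3 lower, and LAMP2 was then not called (adjusted p = 0.0982), while leaving out NC replicate 1 and NFS1 replicate 4 gave 12 and 5. In NC against R-47 cells, library size alone and the 3 fits on FPKM gave 10 higher, and PSAP reversed to 0.10 (0.0982 on library size alone, 0.0976 to 0.0978 on FPKM). The cause was not tested.

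The replicate numbers did not pair the libraries: same-numbered libraries had correlated deviations of -0.225 to 0.215 with heat, -0.431 to 0.123 in NFS1 against NC and -0.036 to 0.329 in NC against R-47 cells. With the replicate number as a block, 3 members were higher and 5 lower with heat, 7 and 4 in NFS1 against NC, and 4 and 21 in NC against R-47 cells.

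Over all genes, library size alone gave 2977 higher and 1013 lower with heat, against 1714 and 1890, fits on FPKM gave 827 to 841 lower, and length and GC offsets gave 2977 lower with heat and 3337 lower, against 1881, in NFS1 against NC. Low counts limit TFEB and WIPI1, which had the largest errors of the 32 in all 3 comparisons.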
